A study of Drosophila melanogaster with 6 samples.

Results

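Lipid metabolism was examined in the heads of HSD-F1 and ND flies through 39 listed genes of fatty acid synthesis, desaturation and elongation, triglyceride synthesis, lipolysis and lipid droplets, lipid transport, fatty acid oxidation and sterol transport. The genes were listed by name and locus tag, with earlier results of these data known. Of the 39 locus tags, 38 had a row in the count tables of 17545 genes, and 36 had at least 10 counts over the 6 libraries and were tested. HSD-F1 flies (3 libraries) were 5-day-old offspring of parents kept from egg to adult on a high-sugar diet with 20% sucrose. ND flies (3 libraries) were of the same age, and their parents were kept on a normal diet with 10% sucrose. The study describes the flies as females, says that HSD-F1 flies ate the normal diet during their own life, and treats each library as a biological replicate made from pooled heads. The labels gave every library the genotype W+VDRC, whereas the study names Canton-S as its wild-type strain, and which of these names holds for the libraries was not given in the sources used here.

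A fly makes fatty acids from acetyl-CoA, which is carboxylated to malonyl-CoA and then built into a saturated chain by fatty acid synthase. Elongases and desaturases modify the chain, acyltransferases join it to glycerol, and the resulting triglyceride is stored in lipid droplets, above all in the fat body, from which lipases release it. Lipophorin carries lipid between tissues in the hemolymph, and mitochondria oxidize the fatty acids after they have been activated with CoA and passed on to carnitine. A head library mixes brain, glia, photoreceptors, muscle, cuticle-forming cells and the head fat body, so that fewer cells of a type and less RNA per cell cannot be told apart.

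The libraries held between 20266352 and 26190694 counts, and HSD-F1 replicate 1 was the shallowest. Counts were scaled by TMM normalization in edgeR. They are given as CPM, the usual unit of counts scaled for the depth of each library, or, to compare genes of different length, as CPM per kilobase of exon (RPKM). A count of 3, taken as the detection limit, was worth between 0.114 and 0.148 CPM. Of the head fat body markers the yolk protein genes were abundant in every library, whereas Fbp1 and Fbp2 had at most 7 counts. The summed level of the markers was 77240, 62190 and 60610 CPM in HSD-F1 replicates 1, 2 and 3 and 75620, 61050 and 69950 CPM in ND replicates 1, 2 and 3, so that the groups overlapped. Of the 9 fat body markers 8 had a lower mean in HSD-F1, with a median log2 fold change of -0.11, and 1 of them, to, passed an unadjusted p under 0.05 (log2 fold change -0.68). The yolk protein genes Yp1, Yp2 and Yp3, which make up most of that sum, had log2 fold changes of -0.01, -0.00 and -0.10. Cyp4g1, the defining marker of oenocytes, the cells that make cuticle hydrocarbons, had a low level of 0.603 ± 0.261 CPM in HSD-F1 and 1.65 ± 1.00 CPM in ND (SD, n = 3 each), with 9, 12 and 23 counts in HSD-F1 and 67, 18 and 41 counts in ND. It passed an unadjusted p under 0.05 (log2 fold change -1.43). The other oenocyte markers did not, with log2 fold changes of 0.105 for FarO, 0.394 for Sgp and -0.035 for svp. The median of the oenocyte markers was 0.04. Markers of the ovary and egg were highest in replicate 3 of both groups, where their sum was 34.9 CPM in HSD-F1 and 127 CPM in ND, against at most 16.7 CPM in the other libraries, and 18 of the 21 tested had a lower mean in HSD-F1. The part of these cell types in the values below was not tested.

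The lipid genes were well represented in the heads. Of the 36 tested genes, 31 averaged at least 1 RPKM, as did 9209 of all 12048 genes tested. The median level of the 36 was 49.0 RPKM, against 7.51 RPKM over all genes tested. The highest level was that of Desat1 (964 RPKM over the 6 libraries), the delta-9 desaturase that makes monounsaturated fatty acids. It was followed by apolpp, which encodes the protein of lipophorin, at 391 RPKM, FASN1, a fatty acid synthase, at 248 RPKM, and AcCoAS, which turns acetate into acetyl-CoA, at 230 RPKM. Desat1 was above all of these in every library. The range of apolpp (309 to 473 RPKM over the 6 libraries) overlapped that of FASN1 (171 to 322 RPKM), but apolpp was above FASN1 within every library. The range of FASN1 overlapped those of AcCoAS (182 to 264 RPKM) and the fatty acid binding protein gene fabp (165 to 228 RPKM). The order of FASN1, AcCoAS and fabp differed between libraries. Only 5 tested genes averaged under 1 RPKM, namely FASN2, Desat2, Fad2, Dgat2 and Lip3.

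**Figure D1:**
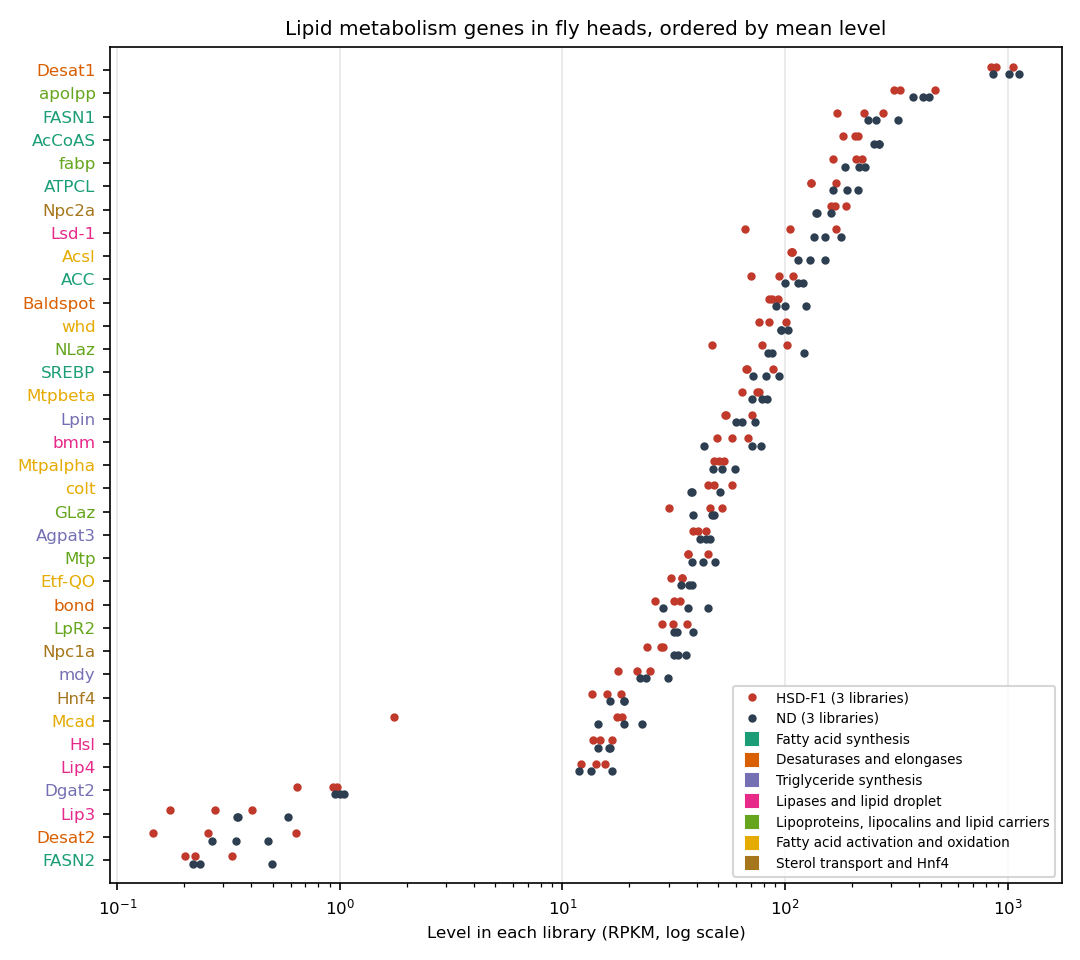
Level of each lipid metabolism gene in each of the 6 libraries, in RPKM on a log axis, with genes ordered by their mean and names coloured by function. HSD-F1 libraries are drawn just above ND libraries in each row, Fad2 is not drawn because it is 0 in some libraries, and 31 genes average at least 1 RPKM while FASN2, Desat2, Dgat2 and Lip3 lie below it.

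Pairs of genes that encode the same kind of enzyme were expressed very unevenly. FASN1 exceeded its neighbour FASN2 by 839 to 1012 times in HSD-F1 libraries and by 650 to 1091 times in ND libraries on the RPKM scale. Desat1 exceeded Desat2, a desaturase known from the synthesis of cuticle hydrocarbons, by 1662 to 5809 times in HSD-F1 and by 2135 to 3285 times in ND. These ratios are rough, because Desat2 had only 4, 9 and 22 counts in HSD-F1 and 9, 17 and 12 counts in ND. The ratio of 5809 rests on the library with 4 counts. The diacylglycerol acyltransferase gene mdy exceeded Dgat2 by 19.0 to 33.8 times in HSD-F1 and by 22.3 to 31.4 times in ND. The lipid genes Fad2, eloF and mag, known from oenocytes or the gut, were at the limit of detection. Fad2, a desaturase of female pheromone synthesis, had 0, 2 and 2 counts in HSD-F1 and 5, 1 and 0 counts in ND. The elongase gene eloF had 1, 0 and 2 counts in HSD-F1 and 3, 0 and 1 counts in ND. The gut lipase gene mag had 0, 1 and 1 counts in HSD-F1 and 0, 2 and 0 counts in ND. A change of these 3 genes was not detectable at this depth.

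In the comparison of HSD-F1 with ND heads, the fitted level was lower in HSD-F1 for 34 of the 36 genes and higher for 2, colt and Npc2a. The median log2 fold change (HSD-F1 over ND) of the 36 genes was -0.16, against -0.003 over all genes tested, of which 50.6% were lower in HSD-F1. The changes were small. No lipid gene passed the adjusted threshold in the quasi-likelihood test of edgeR, with p-values adjusted over all genes by the Benjamini-Hochberg method, where the lowest adjusted p among them was 0.911. Adjusted calls were made for 0.0664% of all genes. At an unadjusted p under 0.05, 5 of the 36 genes differed. AcCoAS, ATPCL, Acsl and Npc1a were lower in HSD-F1, where 2.16% of all genes were called in that direction, and Npc2a was higher, where 2.91% of all genes were. In either direction together 5.07% of all genes had an unadjusted p under 0.05. DESeq2 called 4 of the lipid genes and limma-voom 5 at the unadjusted threshold, and neither called any after adjustment. The share of all genes called was counted for edgeR only. No lipid gene combined an unadjusted p under 0.05 with a change of at least 1.5-fold, which 1.81% of all genes did. The 3 HSD-F1 libraries lay below the 3 ND libraries without overlap for AcCoAS, Acsl and Npc1a, that is 3 of 36 genes, and above them for none. Over all genes such a separation was found for 5.17% downward and 6.67% upward.

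The 95% interval of the log2 fold change lay within 1.5-fold in both directions (±0.585) for 21 of the 36 genes. For 33 genes it excluded a rise of 1.5-fold, and for the 5 genes called at the unadjusted threshold it excluded 0. Over the 14 other settings of normalization, filter, test and libraries, the number of lipid genes lower in HSD-F1 stayed between 28 and 34. The genes of a pathway do not vary independently, and no test over the list was made.

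**Figure D2:**
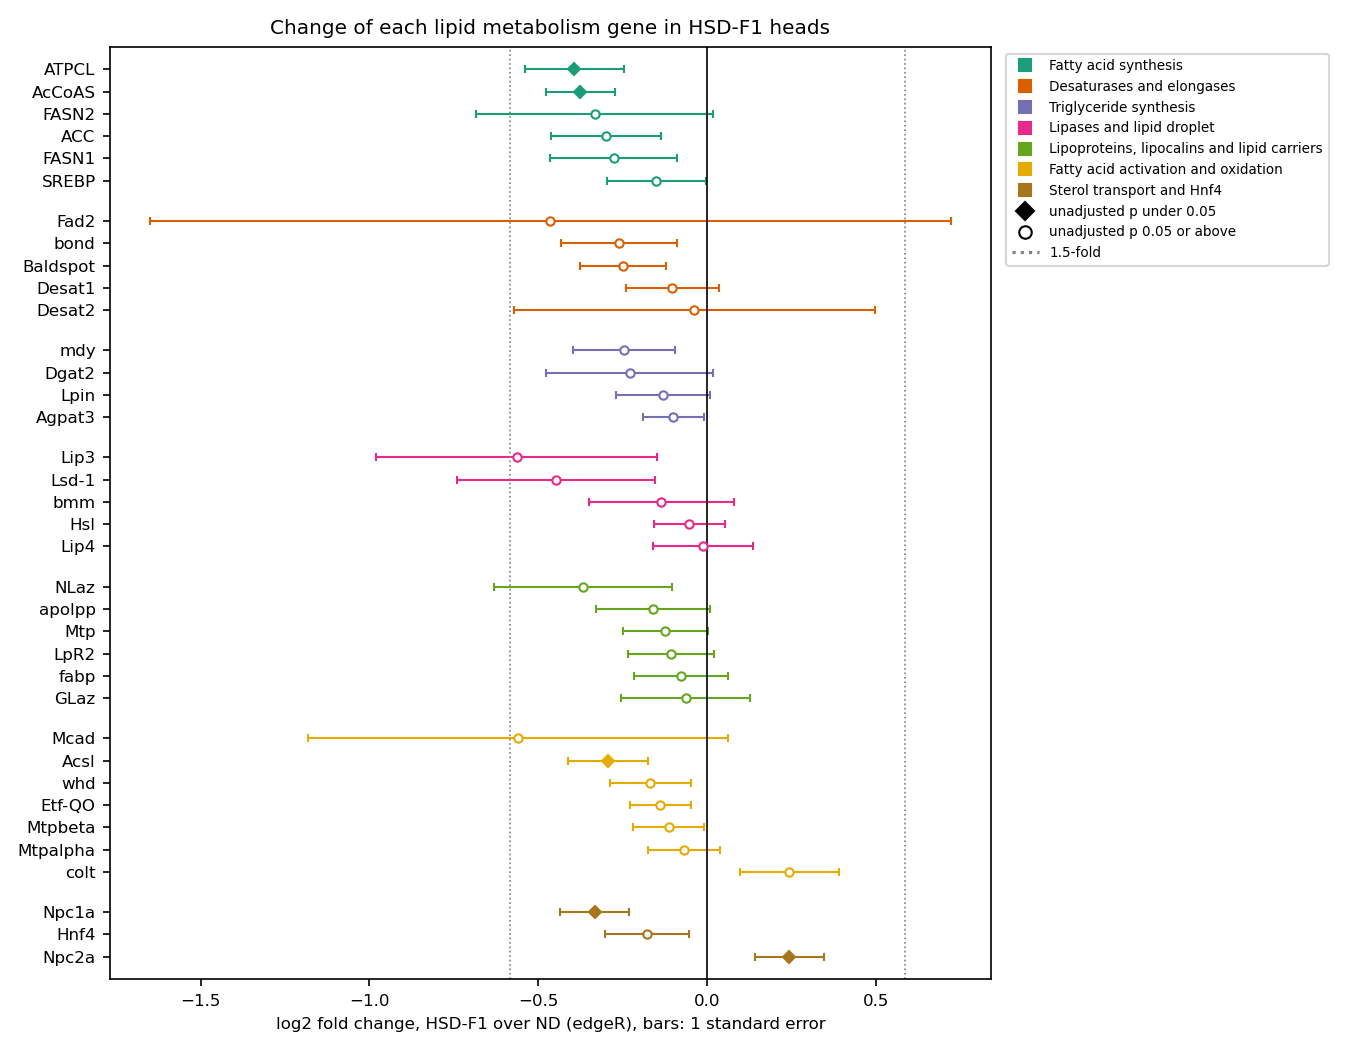
log2 fold change of each of the 36 tested genes, HSD-F1 over ND, from edgeR, grouped by function, with bars of 1 standard error and dotted lines at a 1.5-fold change. Points left of 0 (34 genes) are lower in HSD-F1, filled diamonds mark the 5 genes with an unadjusted p under 0.05, and no gene passes the adjusted threshold.

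Genes of fatty acid synthesis were all lower in HSD-F1 heads, and only AcCoAS and ATPCL, the enzymes that supply acetyl-CoA, passed the unadjusted threshold. The log2 fold changes of the 6 genes ran from -0.39 to -0.15, with a median of -0.32. Summed over the 6 genes, the level was 4544, 4099 and 4640 CPM in HSD-F1 replicates 1, 2 and 3, and 5364, 5288 and 5766 CPM in ND replicates 1, 2 and 3. The highest HSD-F1 sum was thus below the lowest ND sum, and FASN1 made up the largest share of each.

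AcCoAS (Dmel_CG9390, chromosome arm 3L, 21270722 to 21280243 on the minus strand of dm6) encodes acetyl-CoA synthetase. It had 744, 658 and 764 CPM in HSD-F1 replicates 1, 2 and 3, and 908, 951 and 950 CPM in ND replicates 1, 2 and 3. The groups did not overlap, and the spread within each was small (722 ± 56.2 CPM in HSD-F1 and 936 ± 24.7 CPM in ND, SD, n = 3 each). The HSD-F1 mean was 0.771 times the ND mean (log2 fold change -0.38, standard error 0.10, unadjusted p = 0.00536 and adjusted p = 0.911 in edgeR). The two-sided exact permutation test gave p = 0.1, the smallest value that 3 against 3 libraries allow. AcCoAS kept an unadjusted p under 0.05 in all 14 other settings, with log2 fold changes between -0.42 and -0.31. ATPCL (Dmel_CG8322, arm 2R, 15993531 to 16001290, minus strand) encodes ATP citrate lyase, which releases acetyl-CoA from the citrate exported by mitochondria. Its level was 565, 736 and 567 CPM in HSD-F1 and 824, 919 and 709 CPM in ND. HSD-F1 replicate 2 reached above ND replicate 3, and the log2 fold change was -0.39 (standard error 0.15, unadjusted p = 0.026 and adjusted p = 0.911 in edgeR). The call was lost when HSD-F1 replicate 1 (-0.33) or 3 (-0.33) or ND replicate 1 (-0.39) or 2 (-0.30) was left out.

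ACC and FASN1 catalyse the next steps, the carboxylation of acetyl-CoA and the building of the chain. ACC (Dmel_CG11198) had 981, 847 and 635 CPM in HSD-F1 and 1093, 1031 and 905 CPM in ND. Only HSD-F1 replicate 1 reached into the ND range, and the log2 fold change was -0.30 (standard error 0.16, unadjusted p = 0.104 and adjusted p = 0.911 in edgeR). Without that library ACC passed the unadjusted threshold with a log2 fold change of -0.45. It passed in 2 of the 14 other settings, over which its log2 fold change ran from -0.45 to -0.14. FASN1 (Dmel_CG3523) had 1978, 1497 and 2401 CPM in HSD-F1 and 2246, 2053 and 2820 CPM in ND. Its libraries varied by more than the groups differed, with a log2 fold change of -0.28 (standard error 0.19, unadjusted p = 0.179 and adjusted p = 0.923 in edgeR). Without HSD-F1 replicate 3 FASN1 passed the unadjusted threshold with a log2 fold change of -0.45. FASN1 passed in 2 of the 14 other settings, with log2 fold changes from -0.45 to -0.12 over the 14. FASN2 had only 37 to 68 counts in HSD-F1 libraries and 47 to 105 counts in ND libraries, with a log2 fold change of -0.33 and a standard error of 0.35. SREBP, the membrane-bound transcription factor that is processed to activate genes of fatty acid synthesis, had 274, 359 and 271 CPM in HSD-F1 and 292, 332 and 379 CPM in ND. The groups overlapped, and its log2 fold change of -0.15 (standard error 0.15) was the smallest of the group.

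**Figure D3:**
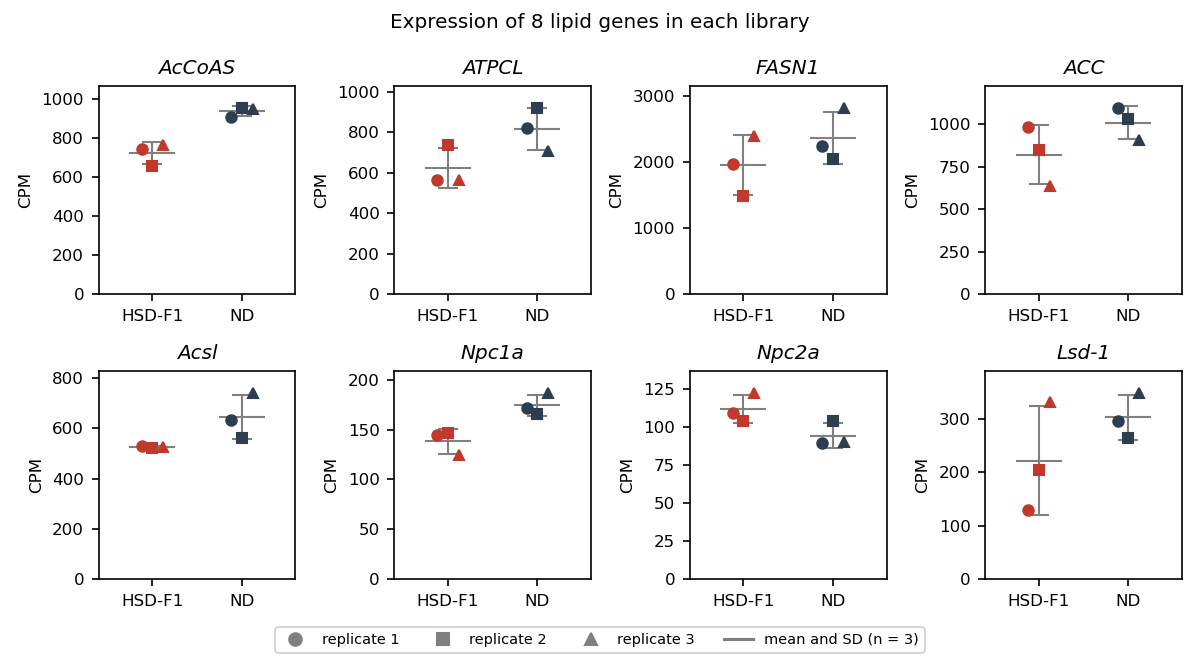
CPM of 8 lipid genes in each library (points, with shape by replicate), with the mean and SD of each group (n = 3) and a vertical axis that starts at 0. HSD-F1 libraries lie below all ND libraries for AcCoAS, Acsl and Npc1a, and the groups overlap for ATPCL, FASN1, ACC, Npc2a and Lsd-1.

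Desaturases and elongases were lower in HSD-F1 in all 5 genes tested, and none passed the unadjusted threshold. The median log2 fold change was -0.25. Desat1 (Dmel_CG5887) had 2102, 2205 and 2634 CPM in HSD-F1 and 2140, 2528 and 2789 CPM in ND. The groups overlapped over most of their range, and the log2 fold change was -0.10 with a 95% interval from -0.42 to 0.21. Baldspot, an elongase of the Elovl6 family, had 264, 242 and 248 CPM in HSD-F1 and 352, 284 and 260 CPM in ND. The HSD-F1 libraries lay close together, and the highest of them was above the lowest ND library (log2 fold change -0.25, standard error 0.13, unadjusted p = 0.0815 and adjusted p = 0.911 in edgeR). The difference in Baldspot depended on single ND libraries, with a log2 fold change of -0.11 without ND replicate 1 and of -0.34, past the unadjusted threshold, without ND replicate 3. The elongase gene bond averaged 58.7 ± 7.45 CPM in HSD-F1 and 70.4 ± 16.1 CPM in ND (SD, n = 3 each), with a log2 fold change of -0.26 (standard error 0.17). It too passed the unadjusted threshold without ND replicate 3 (-0.42). Of the 14 other settings bond passed in 2, and its log2 fold change ran from -0.49 to -0.09 over the 14. Desat2 had 4 to 22 counts in HSD-F1 libraries and 9 to 17 counts in ND libraries, with a log2 fold change of -0.04 (standard error 0.54).

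Triglyceride synthesis was represented by 4 genes, all lower in HSD-F1 and none past the unadjusted threshold, with log2 fold changes from -0.25 to -0.10. Lpin, the phosphatidate phosphatase that makes diacylglycerol, had 301, 393 and 295 CPM in HSD-F1 and 352, 330 and 402 CPM in ND. HSD-F1 replicate 2 was nearly as high as the highest ND library, and the log2 fold change was -0.13 (standard error 0.14). Agpat3, which acylates lysophosphatidic acid, had 92.2, 97.5 and 106 CPM in HSD-F1 and 106, 99.9 and 111 CPM in ND, with a log2 fold change of -0.10 (standard error 0.09). The 95% interval of Agpat3 ran from -0.31 to 0.11. The gene mdy, the diacylglycerol acyltransferase of the last step, averaged 57.5 ± 9.37 CPM in HSD-F1 and 68.1 ± 10.7 CPM in ND (SD, n = 3 each), with a log2 fold change of -0.25 (standard error 0.15). Dgat2 had 17 to 33 counts in HSD-F1 and 31 to 36 counts in ND, with a log2 fold change of -0.23 (standard error 0.25).

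Among lipases and lipid droplet genes all 5 tested were lower in HSD-F1 and none was called. The median log2 fold change was -0.14. Lsd-1 (Dmel_CG10374), the perilipin that coats lipid droplets and gives lipases access to them, varied widely between the libraries of a group. It had 129, 205 and 332 CPM in HSD-F1 replicates 1, 2 and 3, and 296, 265 and 348 CPM in ND replicates 1, 2 and 3. HSD-F1 replicates 1 and 2 lay below all ND libraries, whereas HSD-F1 replicate 3 lay among them. The log2 fold change was -0.45 (standard error 0.29, unadjusted p = 0.164 and adjusted p = 0.917 in edgeR). It was -0.86 without HSD-F1 replicate 3, where Lsd-1 passed the unadjusted threshold and 1.5-fold, and -0.17 without HSD-F1 replicate 1. The gene of the main triglyceride lipase, bmm (brummer), had 120, 166 and 140 CPM in HSD-F1 and 190, 105 and 174 CPM in ND. ND replicate 2 was the lowest and ND replicate 1 the highest of all libraries, and the log2 fold change was -0.14 (standard error 0.22). Hsl, the hormone-sensitive lipase gene, averaged 58.1 ± 5.95 CPM in HSD-F1 and 60.3 ± 3.85 CPM in ND, and Lip4 averaged 32.9 ± 3.95 CPM in HSD-F1 and 33.2 ± 5.76 CPM in ND (SD, n = 3 each). The 95% interval of Hsl, from -0.29 to 0.19 on the log2 scale, excluded a change of 1.5-fold in either direction. Lip3 had 5 to 15 counts in HSD-F1 and 13 to 21 counts in ND (log2 fold change -0.56, standard error 0.42).

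The second droplet protein named for this group, Lsd-2, is a separate gene, because the locus tag listed with it, Dmel_CG3057, belongs to colt. Lsd-2 (Dmel_CG9057) had 322, 279 and 315 CPM in HSD-F1 and 389, 321 and 393 CPM in ND. Its lowest ND library lay just below its highest HSD-F1 library, and the log2 fold change was -0.27 (standard error 0.12, unadjusted p = 0.0489 and adjusted p = 0.911 in edgeR).

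Genes of lipid transport were lower in HSD-F1 in all 6 cases tested, with a median log2 fold change of -0.12, and none was called. Apolpp (Dmel_CG11064) had 5563, 3638 and 3853 CPM in HSD-F1 replicates 1, 2 and 3, and 5215, 4441 and 4924 CPM in ND replicates 1, 2 and 3. HSD-F1 replicate 1 was the highest of the 6 libraries and the other HSD-F1 libraries were the lowest, and the log2 fold change was -0.16 (standard error 0.17). Without HSD-F1 replicate 1 it was -0.38 and passed the unadjusted threshold. Apolpp passed in 1 of the 14 other settings, over which its log2 fold change ran from -0.38 to -0.05. The summed fat body markers, mostly yolk protein genes, were also highest in HSD-F1 replicate 1 (77240 CPM, against 75620 CPM in ND replicate 1). The median log2 deviation of these markers from their mean over the 6 libraries was instead highest in ND replicate 1 (0.244, against 0.085 in HSD-F1 replicate 1). A link to apolpp was not tested. Mtp, which loads lipid onto lipophorin, and LpR2, a lipophorin receptor, had log2 fold changes of -0.12 and -0.11, each with a standard error of 0.13. The lipocalin genes NLaz and GLaz, which encode proteins of the apolipoprotein D family, were lowest in HSD-F1 replicate 1. NLaz had 53.9, 117 and 90.1 CPM in HSD-F1 and 96.1, 101 and 140 CPM in ND, with a log2 fold change of -0.37 (standard error 0.26, unadjusted p = 0.199 and adjusted p = 0.931 in edgeR). Without HSD-F1 replicate 2 NLaz passed the unadjusted threshold and 1.5-fold, with a log2 fold change of -0.64. NLaz passed the unadjusted threshold in 2 of the 14 other settings, over which its log2 fold change ran from -0.64 to -0.12. GLaz had 36.7, 55.7 and 63.2 CPM in HSD-F1 and 46.9, 58.5 and 57.3 CPM in ND, and without HSD-F1 replicate 1 its log2 fold change was 0.13 in place of -0.06. The gene fabp had 380, 482 and 510 CPM in HSD-F1 and 526, 495 and 426 CPM in ND, with overlapping groups and a log2 fold change of -0.08 (standard error 0.14). It shares 72.1% of its exon bases with sea on the same strand, so that the counts of the pair depend on how shared reads were assigned. The counts of sea, the mitochondrial citrate carrier gene, were 49, 432 and 371 in HSD-F1 and 598, 502 and 410 in ND, lowest by far in HSD-F1 replicate 1.

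The listed tag of Fatp1, Dmel_CG7400, had no row. The tables give this fatty acid transport protein gene under the newer tag Dmel_CG46149, where it had 185, 186 and 181 CPM in HSD-F1 and 204, 191 and 203 CPM in ND. The groups did not overlap, but the difference was small (log2 fold change -0.11, standard error 0.08, unadjusted p = 0.208 and adjusted p = 0.931 in edgeR).

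In the activation and oxidation of fatty acids, 6 of 7 genes were lower in HSD-F1 and 1 was called, the long-chain acyl-CoA synthetase gene Acsl (Dmel_CG8732, arm 2R, 8665813 to 8683022, plus strand). The median log2 fold change was -0.14. Acsl had 529, 521 and 526 CPM in HSD-F1, which hardly varied, and 631, 563 and 738 CPM in ND. All HSD-F1 libraries lay below all ND libraries, and the HSD-F1 mean was 0.816 times the ND mean (log2 fold change -0.29, standard error 0.12, unadjusted p = 0.0361 and adjusted p = 0.911 in edgeR, two-sided exact permutation p = 0.1). The call was lost without HSD-F1 replicate 2 (-0.29) or 3 (-0.29) or ND replicate 1 (-0.31) or 3 (-0.19), and in replicates 1 and 2 of each group (-0.18).

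The next steps of oxidation showed no called difference. The gene whd encodes carnitine palmitoyltransferase, which passes the acyl group to carnitine at the mitochondrial membrane. It had 243, 321 and 270 CPM in HSD-F1 and 304, 304 and 328 CPM in ND, and HSD-F1 replicate 2 lay inside the ND range (log2 fold change -0.17, standard error 0.12). Without that library whd passed the unadjusted threshold (-0.29). It passed in 1 of the 14 other settings, with log2 fold changes from -0.29 to -0.08 over the 14. The carrier that brings acylcarnitine into mitochondria is encoded by colt, which had the opposite sign, with 85.2, 66.4 and 70.8 CPM in HSD-F1 and 75.3, 56.4 and 56.1 CPM in ND. ND replicate 1 lay above 2 of the HSD-F1 libraries, and the log2 fold change was 0.24 (standard error 0.15, unadjusted p = 0.132 and adjusted p = 0.911 in edgeR). Without ND replicate 1 colt passed the unadjusted threshold with a log2 fold change of 0.40. It passed in 2 of the 14 other settings, over which its log2 fold change ran from 0.13 to 0.40. Of the trifunctional protein of the oxidation cycle, Mtpalpha averaged 146 ± 7.07 CPM in HSD-F1 and 153 ± 17.4 CPM in ND, and Mtpbeta 114 ± 10.5 CPM in HSD-F1 and 124 ± 9.57 CPM in ND (SD, n = 3 each). Etf-QO, which passes electrons from the dehydrogenases to the respiratory chain, averaged 76.4 ± 4.79 CPM in HSD-F1 and 84.0 ± 4.93 CPM in ND (SD, n = 3 each). The 95% intervals of these 3 genes lay within 1.5-fold in both directions.

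Mcad, the medium-chain acyl-CoA dehydrogenase gene, had 2.57, 26.9 and 25.8 CPM in HSD-F1 and 27.5, 21.2 and 33.3 CPM in ND. A single library, HSD-F1 replicate 1, was far below the others, which overlapped fully. The fit put the log2 fold change at -0.56 (standard error 0.62). So low a library was rare, since in HSD-F1 replicate 1 only 3 of 6929 genes lay more than 4-fold below the lowest other library. The exons of Mcad overlap those of CG7457 on the opposite strand over 92.6% of their length. The counts of CG7457 were 164, 156 and 198 in HSD-F1 and 202, 192 and 230 in ND, with no such drop, and the use of strand in counting was not given in the sources used here.

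The sterol transport genes differed from each other in direction. Npc1a and Npc2a encode the membrane protein and the soluble protein that together release sterols from late endosomes and lysosomes. Npc1a (Dmel_CG5722, arm 2L, 10213812 to 10221216, minus strand) had 144, 147 and 124 CPM in HSD-F1 and 171, 165 and 186 CPM in ND. All HSD-F1 libraries were below all ND libraries, and the HSD-F1 mean was 0.794 times the ND mean (log2 fold change -0.33, standard error 0.10, unadjusted p = 0.0106 and adjusted p = 0.911 in edgeR, two-sided exact permutation p = 0.1). Npc1a kept its call whichever single library was left out, and lost it in replicates 1 and 2 of each group (-0.21). Npc2a (Dmel_CG7291, arm 2L, 1988290 to 1988940, plus strand) had 110, 104 and 122 CPM in HSD-F1 and 89.6, 104 and 90.1 CPM in ND. HSD-F1 replicate 2 and ND replicate 2 were equal to the first decimal, and the log2 fold change was 0.24 (standard error 0.10, unadjusted p = 0.0448 and adjusted p = 0.911 in edgeR, two-sided exact permutation p = 0.2). Among other settings, the call of Npc2a was lost with DESeq2 (0.24), without HSD-F1 replicate 3 (0.18), without ND replicate 1 (0.21), without ND replicate 3 (0.21) or in replicates 1 and 2 of each group (0.14).

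The level of Npc2a relative to Npc1a, per kilobase of exon, was 6.06, 5.66 and 7.88 in HSD-F1 and 4.18, 5.03 and 3.86 in ND. The ratio was thus higher in every HSD-F1 library than in every ND library. It was formed because the genes had been called in opposite directions, and it is a description with no test. Hnf4, the nuclear receptor that turns on lipid breakdown during fasting, had 85.4, 98.3 and 73.1 CPM in HSD-F1 and 102, 101 and 87.5 CPM in ND, with overlapping groups and a log2 fold change of -0.18 (standard error 0.12).

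The HSD-F1 libraries differed in which lipid genes were lowest. In HSD-F1 replicate 1, Lsd-1, NLaz, GLaz and Mcad were the lowest of all 6 libraries while apolpp, colt and Hsl were the highest. ATPCL, Desat1, Desat2, bond, Dgat2, Agpat3, Lip3, fabp, whd and Mtpbeta were also lowest there. In HSD-F1 replicate 2, FASN1, FASN2, AcCoAS, Baldspot, apolpp, Mtp and Acsl were the lowest and NLaz was above 2 of the ND libraries. In HSD-F1 replicate 3, ACC, SREBP, mdy, Lpin, Hsl, LpR2, Etf-QO, Npc1a and Hnf4 were the lowest. Lsd-1 and FASN1 were above 2 of the ND libraries there. Without HSD-F1 replicate 1, 30 of 36 genes were lower in HSD-F1, with a median log2 fold change of -0.11. Without HSD-F1 replicate 2 or 3, 32 of 35 were lower, with medians of -0.23 and -0.16. Summed over all lipid genes tested, the level was 15630, 13850 and 14920 CPM in HSD-F1 replicates 1, 2 and 3, and 17060, 16160 and 17820 CPM in ND replicates 1, 2 and 3, a sum that apolpp, Desat1 and FASN1 dominate.

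**Figure D4:**
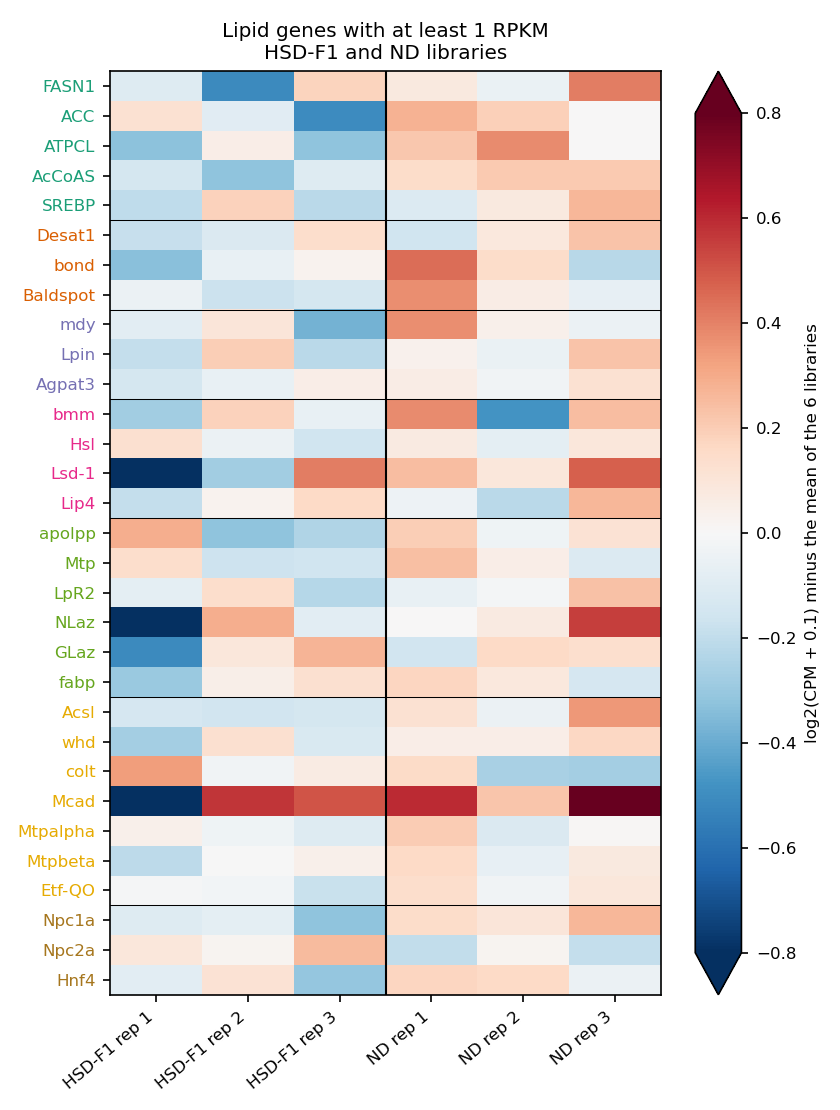
Deviation of the 31 lipid genes with at least 1 RPKM in each library from the mean of the 6 libraries, as log2 of CPM plus 0.1, with HSD-F1 libraries left of ND libraries and genes grouped by function. AcCoAS, Acsl and Npc1a are below their mean in all 3 HSD-F1 libraries, and the lowest Lsd-1, NLaz and Mcad values belong to HSD-F1 replicate 1. Lsd-1 is also below all ND libraries in HSD-F1 replicate 2.

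Other genes of lipid metabolism, 105 in number and listed by function beside the 39, were also mostly lower in HSD-F1. Of the 85 with at least 10 counts, 63 were lower and 22 higher in HSD-F1, with a median log2 fold change of -0.12. An unadjusted p under 0.05 was found for 10 lower genes and 1 higher gene of the 85, beside 2.16% lower and 2.91% higher over all genes, and none passed the adjusted threshold in edgeR, where the lowest adjusted p was 0.911. The groups did not overlap for 14 lower and 2 higher genes of the 85, beside 5.17% and 6.67% over all genes. By function, where 5.07% of all genes were called in either direction, the genes of glycerolipid synthesis and lipid droplets had 4 called of 17 tested, all lower, and a median log2 fold change of -0.19. The other elongases and desaturases had 3 called of 15, all lower, with a median of -0.11, and the other lipid transport genes 3 of 20, all lower, with a median of -0.10. The other fatty acid oxidation genes had 1 called of 22, which was higher, with a median of -0.10. None of the 11 other lipases tested was called, and their median was -0.18.

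Of the called genes among these, CG31523, CG31522 and Elo68alpha encode elongases. CG31523 had 197, 199 and 215 CPM in HSD-F1 and 355, 274 and 231 CPM in ND, without overlap (log2 fold change -0.49, standard error 0.15, unadjusted p = 0.0114 and adjusted p = 0.911 in edgeR). Its neighbour on arm 3R, CG31522, had 203, 210 and 223 CPM in HSD-F1 and 349, 271 and 226 CPM in ND (log2 fold change -0.41, standard error 0.15). The libraries came in the same order for both genes. Elo68alpha was the only one to combine an unadjusted p under 0.05 with 1.5-fold, at no more than 2.08 CPM in any library (log2 fold change -0.98, standard error 0.42). Pect, which makes CDP-ethanolamine for phosphatidylethanolamine, had 215, 274 and 244 CPM in HSD-F1 and 304, 306 and 312 CPM in ND, without overlap (log2 fold change -0.33, standard error 0.11). The ethanolamine kinase gene eas had 224, 190 and 200 CPM in HSD-F1 and 264, 237 and 230 CPM in ND, again without overlap (log2 fold change -0.25, standard error 0.10). Agpat2, an acyltransferase of the same family as Agpat3, averaged 27.9 ± 1.37 CPM in HSD-F1 and 34.5 ± 1.93 CPM in ND (SD, n = 3 each; log2 fold change -0.31, standard error 0.10). Among receptors of the CD36 family, crq (log2 fold change -0.23), santa-maria (-0.26) and ninaD (-0.45) were called lower, of which santa-maria and ninaD serve carotenoid uptake for vision. The single called rise was in CG4860, an acyl-CoA dehydrogenase gene, with 7.89, 7.64 and 6.29 CPM in HSD-F1 and 4.68, 5.66 and 6.13 CPM in ND, without overlap (log2 fold change 0.40, standard error 0.15). Of the 11 genes called here, CG31523 kept an unadjusted p under 0.05 in all 14 other settings. Agpat2 lost it without ND replicate 1 (-0.27), Pect lost it in replicates 1 and 2 of each group (-0.32), and the other 8 lost it on leaving out at least 1 single library.

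**Figure D5:**
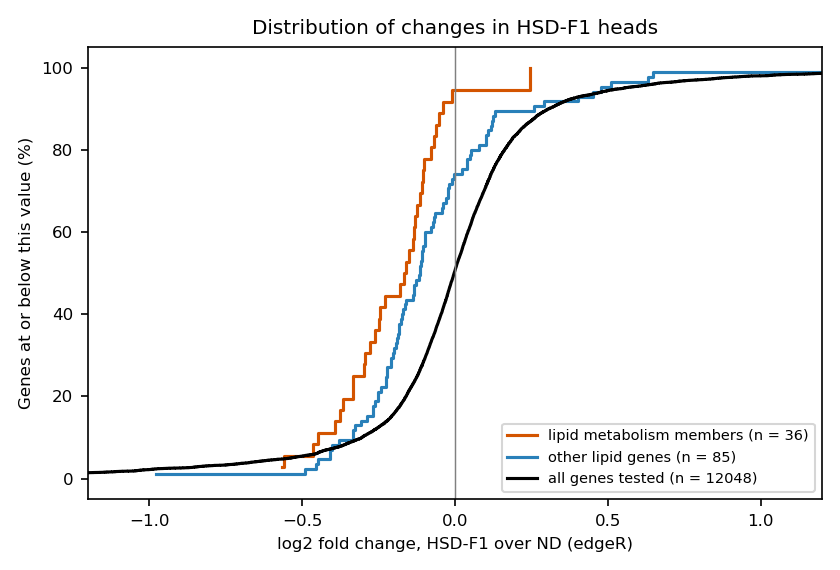
Cumulative distribution of the log2 fold change, HSD-F1 over ND, for the 36 lipid genes tested, the 85 other lipid genes and all 12048 genes, with the horizontal axis cut at 1.2 in either direction. The lipid genes lie left of all genes over most of the range, with medians of -0.16 and -0.12 against -0.003, and most changes are smaller than 1.5-fold.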

How the data were processed

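The authors sequenced poly(A) RNA of pooled fly heads on the DNBSEQ platform, 3 libraries each of HSD-F1 and ND flies, and deposited for every library a table of unnormalized whole-number counts of reads on 17545 genes, with RefSeq locus tags and dm6 coordinates. The submitters' processing notes list HISAT2 2.0.4, Bowtie2 2.2.5, RSEM 1.2.12 and DESeq2 1.4.5. Which of them made the counts, whether strand was used and how reads shared by overlapping genes were assigned is not given in the sources used here.

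Symbols came from the RefSeq gene table for Release 6, where 17504 of the 17545 tags were found. The 12048 genes with a total of 10 or more counts were scaled by TMM and compared with glmQLFit and glmQLFTest of edgeR 4.0.16 (R 4.3.3), with group as the only term and Benjamini-Hochberg adjustment over all genes. CPM and RPKM (CPM per kilobase of summed exon length) were computed here, the standard error was taken from the fold change and its F statistic, and 95% intervals used the t distribution with edgeR's degrees of freedom. Single genes were also compared by a two-sided exact permutation test over the 20 assignments of the libraries, whose smallest p is 0.1. The edgeR test was tried on simulated counts. Alternatives were DESeq2 1.42.0, limma-voom (limma 3.58.1), other scalings and filters, a replicate block and leaving out libraries, and pandas 2.3.3, numpy 2.4.6 and matplotlib 3.10.9 (Python 3.11.15) served for tables and plots. Libraries held 20266352 to 26190694 counts. Detection limits on counts cover counting error only, whereas the 95% intervals and the p-values measure the spread between pools of heads.

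The 39 lipid genes, the 105 other lipid genes and the marker lists were chosen with earlier results of these data known. Values per library are given for lipid genes with an unadjusted p under 0.05, for those whose groups did not overlap and for the 2 of each function with the highest RPKM. ACC, SREBP, NLaz, GLaz, colt, Mcad and Hnf4 were added after their values were seen, and Lsd-2 and Fatp1 because their names and listed tags did not match the tables. Of the other lipid genes, those with an unadjusted p under 0.05 are named. Marker lists covered the head fat body, oenocytes, ovary and egg, male tissue, photoreceptors, neurons, glia, muscle, hemocytes and gut. Reads were not analysed here.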

Additional observations from a re-analysis of the deposited data

How the results depend on the processing

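Of the 36 lipid genes tested, 22 were lower in HSD-F1 in every other setting that tested them (of 14, with 13 for Lip3), colt and Npc2a were higher in all 14, and 12 changed sign in at least 1. The replicate numbers were not taken to pair the libraries. In their deviations from the group means, same-numbered HSD-F1 and ND libraries correlated at 0.37, -0.05 and 0.37. HSD-F1 replicate 2 correlated best with ND replicate 1 (0.125). HSD-F1 replicate 1 correlated at -0.34 with ND replicate 3, and HSD-F1 replicate 3 at -0.44 with ND replicate 1. Whether replicates 1 and 3 share a structure across the groups was not tested. With a replicate block 9 lipid genes had an unadjusted p under 0.05, 8 lower and 1 higher, in place of 5, and 0 passed adjustment. Npc2a (0.24) lost its call there. The share of all genes called was counted only in edgeR with group as the only term over the 6 libraries. The counts of lipid genes in the other settings, the replicate block included, therefore have no such share beside them. In replicates 1 and 2 of each group 1 gene, Lsd-1, combined p under 0.05 with 1.5-fold. On leaving out single libraries, the number at unadjusted p under 0.05 ranged from 3 (without ND replicate 1) to 6, the number also past 1.5-fold from 0 to 1, and the median log2 fold change from -0.23 to -0.11, while the number past adjustment was 0 each time.

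Some genes turned to a higher level in HSD-F1, and their log2 fold changes follow. Lip4 had 0.008 with upper-quartile scaling and Fad2 a fitted 0.054 with limma-voom. In replicates 1 and 2 of each group the values were 0.022 for SREBP, 0.027 for Lpin, 0.044 for Hsl, 0.052 for Lip4 and 0.073 for LpR2. On leaving out single libraries the ranges were -0.575 to 0.146 for FASN2, -0.814 to 0.297 for Desat2, -0.355 to 0.031 for bmm, -0.134 to 0.012 for Hsl, -0.115 to 0.132 for Lip4, -0.229 to 0.133 for GLaz, -0.163 to 0.040 for fabp and -0.142 to 0.022 for Mtpalpha. The cause of these reversals was not tested.

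Fad2, Desat2, Lip3, Dgat2 and FASN2 had low counts and wide errors, and each group had 3 libraries. The exact permutation test cannot go below 0.1 here.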

Other observations

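Npc2a belongs to a family of genes for small secreted sterol-binding proteins, and its other expressed members were looked at after Npc2a was seen to be higher in HSD-F1. Npc2g had 236, 214 and 277 CPM in HSD-F1 and 225, 181 and 188 CPM in ND, with a log2 fold change of 0.29 (standard error 0.13). Npc2h had 114, 97.5 and 115 CPM in HSD-F1 and 109, 84.8 and 79.3 CPM in ND, with a log2 fold change of 0.26 (standard error 0.13). In both genes ND replicate 1 reached into the HSD-F1 range. Npc2f, a gene of low level with 1.53, 1.65 and 1.14 CPM in HSD-F1 and 0.921, 1.18 and 0.926 CPM in ND, had a log2 fold change of 0.51 (standard error 0.25). Npc2b had 81.9, 117 and 134 CPM in HSD-F1 and 117, 126 and 114 CPM in ND, with a log2 fold change of -0.11 (standard error 0.17). None of these 4 genes passed the unadjusted threshold in edgeR with TMM scaling and group as the only term over the 6 libraries, at 10 or more counts, whereas Npc2g passed it in 6 of the 14 other settings, Npc2h in 2 and Npc2f in 1. Npc2c, Npc2d and Npc2e had 0 counts in every library.

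Markers of the main cell types of the head showed small differences of either sign. The median log2 fold change was 0.024 for 10 photoreceptor markers (6 higher and 4 lower, none called), 0.025 for 10 neuronal markers (6 higher and 4 lower) and -0.005 for 8 glial markers (4 higher and 4 lower, none called). Among the neuronal markers para, the voltage-gated sodium channel gene, had an unadjusted p under 0.05 and was higher, at 702 ± 79.2 CPM in HSD-F1 and 554 ± 16.3 CPM in ND (SD, n = 3 each, log2 fold change 0.34). For 3 of the 10 neuronal markers (nSyb, cac and para) the HSD-F1 libraries lay above the ND libraries without overlap. No neuronal marker was separated downward. Among photoreceptor markers 1, norpA, was separated downward, and no glial marker was separated. Over all genes 6.67% were separated upward and 5.17% downward. The medians were 0.11 for 9 muscle markers, -0.003 for 8 hemocyte markers and -0.08 for 8 gut markers, none of which was called. Of the 10 male markers only Mst87F and Dup99B had enough counts to be tested, with group means of at most 0.218 CPM, and neither was called. The 4 oenocyte markers had a median of 0.04, and Cyp4g1 was the one called (log2 fold change -1.43).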
